A study of Mus musculus with 4 samples.

Results

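Hspa5, Dnajb11, Calr, Canx, Pdia4 and Pdia6 encode chaperones and disulphide isomerases that fold proteins inside the endoplasmic reticulum. These 6 genes were selected on the deposited log2 ratios of the same 4 arrays described here, so their ratios are given as a description and no test is run on them. All 6 had a value on every array, among 6327 genes that did and 9081 genes with a value on at least 1 array. Each array compared NIH3T3 cells that overexpress Erbb2, a receptor tyrosine kinase, after transfection with untransfected NIH3T3 cells, whose Erbb2 expression is labelled normal. NIH3T3 is an established line of mouse embryo fibroblasts. By the dye labels, Cy5 marked the transfected line on the first pair of arrays (1 and 2) and Cy3 marked it on the swapped pair (3 and 4). The arrays are repeat hybridisations, technical by the series' own account, so there was 1 sample per line and every SD and p-value covers the spread between arrays only. The labels used here name neither the vector or promoter of the transfected line nor whether it is a clone.

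Proteins that enter the secretory pathway fold in the lumen of the endoplasmic reticulum. BiP, the product of Hspa5, is the Hsp70 chaperone of that compartment and works with J-domain co-chaperones such as the product of Dnajb11. Calreticulin (Calr) and calnexin (Canx) are lectins that hold glycoproteins with trimmed sugar chains until they have folded, and protein disulphide isomerases such as Pdia4 and Pdia6 form and exchange disulphide bonds. Genes of this machinery are induced together in the unfolded protein response, whose sensors are ATF6, IRE1 and PERK. In fibroblasts the load on this system includes procollagen and other matrix proteins.

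The ratio is a log2 ratio whose direction was not stated. From the dye labels it is likely transfected over untransfected, so a value of -1 stands for a 2-fold lower level in the transfected line, and all signs would turn together if the reading were wrong. In the lower rows of the deposited table, arrays 2 to 4 lie 3 or 4 rows away from array 1. Values there were read after moving arrays 2 to 4 back to array 1, and rows with an unclear offset were left out. Which arrays are in step with the probe names was looked at through pairs of probes of the same gene within 1 array. In the middle rows, which hold Hspa5 and Calr, such pairs had Spearman's rho of 0.0979 on array 1 as deposited and 0.0217 with array 1 moved instead. On arrays 2 to 4 rho there was 0.0644, 0.0274 and 0.172 after moving, and -0.0431, -0.0276 and 0.0665 as deposited. In the last rows, which hold Pdia6, rho on array 1 was 0.110 as deposited and 0.00958 moved. On arrays 2 to 4 it was 0.136, -0.0845 and -0.0293 after moving, and -0.0456, 0.0153 and -0.178 as deposited, over 72 to 120 pairs an array. All these correlations are weak, and if array 1 were the misplaced one, the moved ratios of Hspa5, Calr and Pdia6 on arrays 2 to 4 would belong to other genes. This bears on Hspa5, Calr and Pdia6, whose probes lie in moved rows, and on 1 of 3 Canx probes. Other genes named below that were read from moved rows alone include Creld2, Herpud1, Ddit3, P4ha2 and Copz1. With rows as deposited Ddit3 had a mean of -0.08, P4ha2 -0.15 and Copz1 -0.50. Creld2 and Herpud1 then did not have values on all 4 arrays. Ero1a (-2.05) and Sdf2 (-1.88) were read from the first 6000 rows and kept their means. The single Pdia4 probe used, the Dnajb11 probe and the other 2 Canx probes lie in the first 6000 rows, which were read as they stand. Across all genes the correlation between pairs of arrays was low, with Pearson's r between 0.123 and 0.202, and the median SD of a gene over 4 arrays was 0.70.

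An array ratio gives no level of its own, so the fibroblast identity of the cells was not checked against absolute levels of markers. Of 11 listed fibroblast markers 6 were measured on all arrays, and Col1a1 and Col1a2, which encode the chains of type I collagen, were lower in the transfected line at an unadjusted p under 0.05 in limma. The other 4 did not pass and had means above 0, namely Col3a1 (0.89 ± 1.36), Vim (0.66 ± 0.18), Pdgfra (0.45 ± 1.85) and S100a4 (0.24 ± 0.80), and the median of the 6 means was 0.35. In an RNA mixture of many cells, fewer cells of a type and less RNA per cell cannot be told apart. The transfected gene itself was not checked, since 0 probes carried the name Erbb2.

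The promoters of 4 of the 6 genes hold an endoplasmic reticulum stress element (ERSE), the sequence for which chaperone genes of this compartment are known. The motif was searched on both strands as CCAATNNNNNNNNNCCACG in windows from 250 bases before to 50 bases after the annotated start, taken from RefSeq (GRCm38.p6). The shorter ERSE-II was searched as ATTGGNCCACG and the unfolded protein response element (UPRE) as TGACGTGG. The 4 windows with an ERSE are shown whole, 5′ to 3′ on the gene's strand, because 3 of them belong to the genes with the lowest ratios of the 6 and the other to Canx, whose ratio was near 0. Capitals mark the ERSE. The last 50 bases of each window belong to the transcribed gene and the rest lies upstream of it. In Calr the element lies on the opposite strand, so it reads as its reverse complement.
Hspa5, chr2:34771840-34772139, plus strand: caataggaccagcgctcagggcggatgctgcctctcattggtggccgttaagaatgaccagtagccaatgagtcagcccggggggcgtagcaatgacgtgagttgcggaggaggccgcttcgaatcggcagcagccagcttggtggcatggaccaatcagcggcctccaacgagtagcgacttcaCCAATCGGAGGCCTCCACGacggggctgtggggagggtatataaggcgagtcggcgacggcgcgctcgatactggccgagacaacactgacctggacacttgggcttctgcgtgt
Calr, chr8:84846882-84847181, minus strand: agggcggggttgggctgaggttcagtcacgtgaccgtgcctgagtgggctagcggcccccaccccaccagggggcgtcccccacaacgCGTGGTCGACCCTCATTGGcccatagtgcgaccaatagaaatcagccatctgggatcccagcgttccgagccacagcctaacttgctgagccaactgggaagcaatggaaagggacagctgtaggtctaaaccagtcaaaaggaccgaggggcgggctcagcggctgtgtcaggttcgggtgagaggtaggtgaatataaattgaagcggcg
Canx, chr11:50325624-50325923, minus strand: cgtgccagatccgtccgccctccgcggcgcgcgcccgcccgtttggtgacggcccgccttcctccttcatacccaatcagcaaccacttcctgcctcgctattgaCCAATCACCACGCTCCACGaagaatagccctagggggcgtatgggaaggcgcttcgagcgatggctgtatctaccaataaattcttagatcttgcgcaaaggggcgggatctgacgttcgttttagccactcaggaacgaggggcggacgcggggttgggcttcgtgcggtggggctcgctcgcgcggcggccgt
Pdia6, chr12:17266339-17266638, plus strand: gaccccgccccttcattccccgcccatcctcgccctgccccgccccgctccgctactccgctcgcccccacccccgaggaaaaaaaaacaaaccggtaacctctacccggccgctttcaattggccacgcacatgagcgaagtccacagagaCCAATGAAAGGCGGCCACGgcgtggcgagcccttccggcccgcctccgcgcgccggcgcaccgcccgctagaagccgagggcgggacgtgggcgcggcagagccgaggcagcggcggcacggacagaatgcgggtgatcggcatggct

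Turned to the same strand, the 4 elements differ only in the 9 bases between their fixed ends, which are printed in capitals here.
Hspa5: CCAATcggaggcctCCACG
Calr: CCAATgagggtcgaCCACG
Canx: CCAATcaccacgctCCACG
Pdia6: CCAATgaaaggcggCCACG
They lie 65 to 47 bases before the start in Hspa5, 98 to 80 bases before it in Pdia6, 145 to 127 bases before it in Canx and 162 to 144 bases before it in Calr. An ERSE was found in 39 of 32851 windows (0.119%). Dnajb11 has no ERSE but an ERSE-II, ATTGGcCCACG, 8 to 18 bases after its start (chr16), a motif found in 12 windows (0.0365%). The Pdia4 window (chr6) holds none of the 3 motifs. The UPRE was found in 222 windows (0.676%) and in 0 of the 6. A match to these letters is a description of the window and not a measured binding site.

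As a group, the 6 genes had a median log2 ratio of -0.66 on array 1, -2.14 on array 2, -1.87 on array 3 and -2.11 on array 4. The median of all genes was 0.10, -0.01, -0.14 and -0.16 on arrays 1 to 4. Of the 6 genes 5 were below 0 on every array, as were 13.0% of all genes, and 4 of 6 were under -1 on each of arrays 2 to 4, as were 2.17% of all genes. The selection used these ratios, so nothing is read from those counts. Ordered from the lowest mean, the genes ran Pdia6, Calr, Hspa5, Pdia4, Dnajb11 and Canx, and neighbours from Pdia6 to Pdia4 differ by less than the SD of either, while the steps to Dnajb11 and to Canx exceed the SDs of these 2 genes.

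**Figure D1:**
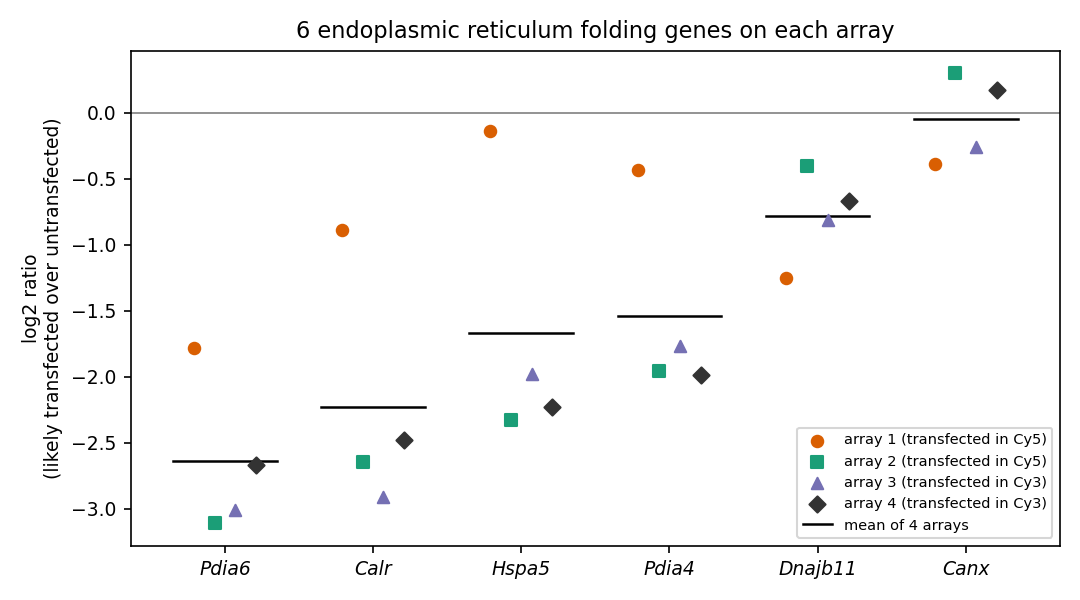
Log2 ratio (likely transfected over untransfected) of each of the 6 genes on arrays 1 to 4, with a bar for the mean of the 4 arrays. In Pdia6, Calr, Hspa5 and Pdia4 array 1 lies above the other 3 arrays, which sit close together, whereas in Dnajb11 and Canx array 1 is the lowest point.

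Hspa5 (gene identifier 14828), the central chaperone, had log2 ratios of -0.14, -2.33, -1.98 and -2.23 on arrays 1 to 4. Array 1 was thus close to an equal level in both lines, while the other 3 arrays lay within 0.35 units of each other. The mean was -1.67 ± 1.03 (SD, n = 4 arrays), a 3.18-fold lower level in the transfected line. Over arrays 2 to 4 it was -2.18 ± 0.18 (SD, n = 3 arrays), a 4.53-fold lower level. From the lowest mean upwards Hspa5 ranked 128 of 6327 genes (2.02%).

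Dnajb11 (67838), the J-domain partner of BiP, had -1.25, -0.40, -0.81 and -0.67 on arrays 1 to 4. All 4 arrays were below 0, with array 1 the lowest and array 2 the nearest to 0. The mean was -0.78 ± 0.36 (SD, n = 4 arrays), a 1.72-fold lower level, and 12.5% of all genes had a mean as low or lower. The Hspa5 ratio was lower than the Dnajb11 ratio on arrays 2, 3 and 4 and higher on array 1.

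The lectins parted. Calr (12317) had -0.89, -2.65, -2.91 and -2.48 on arrays 1 to 4, all below 0, with arrays 2 to 4 close together. Its mean was -2.23 ± 0.92 (SD, n = 4 arrays), a 4.70-fold lower level, and over arrays 2 to 4 it was -2.68 ± 0.22 (SD, n = 3 arrays), a 6.41-fold lower level. Calr ranked 43 of 6327 (0.680%).

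Canx (12330), the membrane-bound relative of calreticulin, had -0.39, 0.30, -0.26 and 0.17 on arrays 1 to 4. Its arrays lay on both sides of 0 and its mean of -0.05 ± 0.33 (SD, n = 4 arrays) was at rank 3353, near the middle of all genes (53.0%). With the rows moved, the ratios of Calr and Canx did not overlap. As deposited, Calr read -1.30, 0.10 and -0.14 on arrays 2 to 4. Both genes were chosen on these ratios, so nothing is read from that gap. Canx was measured by 3 probes. The probe with a value on every array in unmoved rows gave -0.49, -0.39, -0.34 and -0.11, and the one in moved rows gave -0.29, -0.58, -0.18 and 0.21. The remaining probe had a value only on array 2 (1.87) and array 4 (0.40), and it lifted the gene's mean on array 2 above 0. The means of the 2 complete probes were -0.33 and -0.21.

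Pdia6 (71853), a disulphide isomerase that forms complexes with BiP, had the lowest ratios of the 6 genes. It had -1.78, -3.11, -3.01 and -2.67 on arrays 1 to 4, all under -1. The mean was -2.64 ± 0.61 (SD, n = 4 arrays), a 6.25-fold lower level, and over arrays 2 to 4 it was -2.93 ± 0.23 (SD, n = 3 arrays), a 7.64-fold lower level. Pdia6 ranked 22 of 6327 genes (0.348%).

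Pdia4 (12304), a larger isomerase, had -0.43, -1.96, -1.77 and -1.99 on arrays 1 to 4. All arrays were below 0, with arrays 2 to 4 within 0.22 units of each other. The mean was -1.54 ± 0.75 (SD, n = 4 arrays), a 2.90-fold lower level, and over arrays 2 to 4 it was -1.91 ± 0.12 (SD, n = 3 arrays), a 3.75-fold lower level. It ranked 172 of 6327 genes (2.72%). Among those of the 6 genes whose ratios were low on arrays 2 to 4, Pdia4 is the one read from rows that needed no moving. Its other 2 probes were left out because their offset was unclear, and with them read as deposited the mean of the gene was -0.99. The values of Hspa5, Calr and Pdia6 depend on the moving itself. As deposited Hspa5 read 1.01, 0.25 and -0.17 on arrays 2 to 4 and Calr read -1.30, 0.10 and -0.14. Pdia6 as deposited read -3.23 on array 2 and -0.35 on array 4 and had no value on array 3.

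Among the 6 genes, array 1 stood apart from arrays 2 to 4 in those with the lowest ratios. Its ratio exceeded the mean of the other 3 arrays by 2.03 in Hspa5, 1.80 in Calr, 1.48 in Pdia4 and 1.16 in Pdia6. In Dnajb11 and Canx it was lower than that mean, by differences of -0.63 and -0.46. The median difference of all genes was 0.20. Array 1 was above each of the other arrays in 4 of the 6 genes and in 29.6% of all genes. The selection used these ratios, so nothing is read from that count. In Col1a1 and Col1a2, which also had low ratios, array 1 was the lowest array (-6.38 and -4.31). Array 2 has the dye orientation of array 1, and array 1 exceeded it by 2.19 in Hspa5, 1.76 in Calr, 1.53 in Pdia4 and 1.34 in Pdia6. The orientation means differ accordingly: with the transfected line in Cy5 Hspa5 had -1.24 and with it in Cy3 -2.10, a difference carried by array 1. The median absolute deviation of all ratios was smallest on array 1 (0.44, against 0.61, 0.70 and 0.51 on arrays 2 to 4). The part of that narrower spread in the gap of array 1 was not tested.

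**Figure D2:**
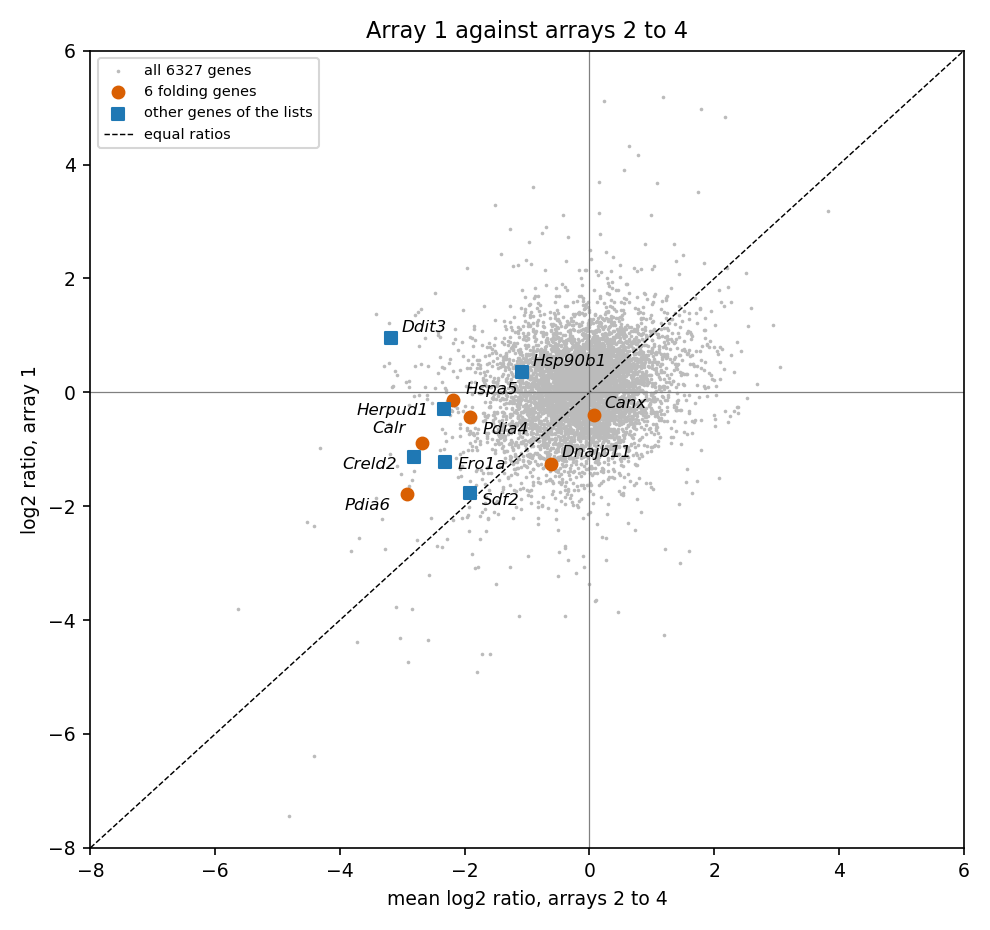
Log2 ratio on array 1 against the mean log2 ratio of arrays 2 to 4 for all 6327 genes (grey), the 6 folding genes (orange circles) and 6 other genes of the lists (blue squares). Hspa5, Calr, Pdia4 and Pdia6 lie left of 0 and above the dashed line of equal ratios, as do Herpud1, Creld2, Ero1a, Ddit3 and Hsp90b1, while Canx and Dnajb11 lie below it.

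The 5 genes whose profile over the 4 arrays was nearest to the mean profile of the 6 (-0.81, -1.69, -1.79 and -1.65), by Euclidean distance, were Slc6a9 (distance 0.20), Map1lc3a (0.48), Helb (0.48), Igfbp6 (0.49) and Pecr (0.50). Slc6a9, which encodes a glycine transporter, had -0.80, -1.87, -1.81 and -1.72 on arrays 1 to 4. Igfbp6, which encodes a binding protein of insulin-like growth factors, had -0.77, -1.60, -1.41 and -1.36. Their likeness to the group is what chose them.

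The 6 genes were next set beside the rest of the folding pathway, in lists from which they were left out. Limma was fitted to all 6327 genes, and 0 of them (0%) passed an adjusted p under 0.05, the smallest adjusted p being 0.105. Counts therefore use an unadjusted p under 0.05, at which 474 genes (7.49%) were lower and 256 (4.05%) higher in the transfected line. Of 103 other genes in 9 lists of the endoplasmic reticulum, 18 (17.5%) were lower and 3 higher at that level. Their median mean ratio was -0.28, against -0.08 for all genes, and 31 of the 103 were below 0 on all 4 arrays and 6 above 0 on all 4, where all genes had 13.0% and 9.58%. Without array 1, 15 of 105 were lower, beside 7.23% of all genes. The count was 9 of 109 without array 2, beside 3.61% of all genes, and 11 of 107 without array 3, beside 5.45% of all genes. The lists were chosen with earlier results of these data known, and the counts are a description. In each list below, the shares of all genes to set beside the counts are 7.49% lower and 4.05% higher.

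Among 9 other Hsp70 and Hsp90 chaperones and co-chaperones of the endoplasmic reticulum, 3 were lower, 0 were higher and the median ratio was -0.72. Creld2, which encodes a secreted isomerase-like protein induced by endoplasmic reticulum stress, had -1.13, -2.50, -3.05 and -2.92 on arrays 1 to 4. Its array 1 was again nearest to 0, and its mean was -2.40 ± 0.88 (limma, unadjusted p = 7.88e-04, adjusted p = 0.196), a 5.28-fold lower level. Sdf2, whose product is found in a complex with BiP and a co-chaperone, had -1.76, -2.28, -2.50 and -0.98, with array 4 nearest to 0 (limma, unadjusted p = 0.00332). Dnajc10, which encodes a J-domain disulphide reductase, had -1.16, -1.08, -0.88 and -0.42 (limma, unadjusted p = 0.0239).

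Hsp90b1, which encodes the Hsp90 of this compartment, did not pass at that level. It had 0.36 on array 1 and -0.93, -1.28 and -1.03 on arrays 2 to 4 (limma, unadjusted p = 0.0848, and 0.0545 without array 1). Its array 1 lay on the other side of 0. The other chaperone genes that did not pass are given as mean ± SD over 4 arrays. They were the co-chaperone gene Dnajc3 (-0.55 ± 0.58), Manf (-0.70 ± 0.61), Creld1 (-1.01 ± 1.62), Sec63 (0.15 ± 0.38) and Dnajc1 (0.42 ± 0.34).

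Of 11 other disulphide isomerases and thiol oxidases, 3 were lower and 0 higher, with a median of -0.39. Of the 11, 7 were below 0 on all 4 arrays, as were 13.0% of all genes. The lowest was Ero1a, which encodes the oxidase that passes disulphide bonds to the isomerases. It had -1.23, -2.73, -2.39 and -1.84 on arrays 1 to 4, a mean of -2.05 ± 0.66 (limma, unadjusted p = 0.00222, adjusted p = 0.280). Txndc16 (-0.98 ± 0.76) and Dnajc10, which is in both lists, also passed. P4hb, which encodes the founding member of the isomerase family and a subunit of collagen prolyl hydroxylase, had -0.16, -0.45, -1.90 and 0.46 and lay on both sides of 0. The peroxiredoxin gene Prdx4 had -0.69 ± 0.14, with little spread (limma, unadjusted p = 0.0507). Txndc12, Tmx1, Tmx4 and Txndc5 had means between -0.39 and -0.25, Txndc11 had -0.09 and Tmx2 0.08.

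In the calnexin and calreticulin cycle 0 of 8 other genes were lower and 0 were higher, with a median of -0.14, and Calr lay below all 8. The glucosidase gene Ganab had 0.20 ± 0.26, Uggt1, which encodes the enzyme that adds glucose back to unfolded glycoproteins, -0.37 ± 0.75, and the cargo receptor genes Lman1 and Lman2 -0.23 ± 1.39 and 0.43 ± 0.79. Clgn, a germ cell relative of calnexin, had 0.52 ± 0.67. Man1b1 had -0.35 ± 0.34, Edem2 -0.82 ± 1.28 and Mcfd2 -0.05 ± 0.62. The mean of Canx (-0.05) lay within the range of these genes, -0.82 to 0.52.

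**Figure D3:**
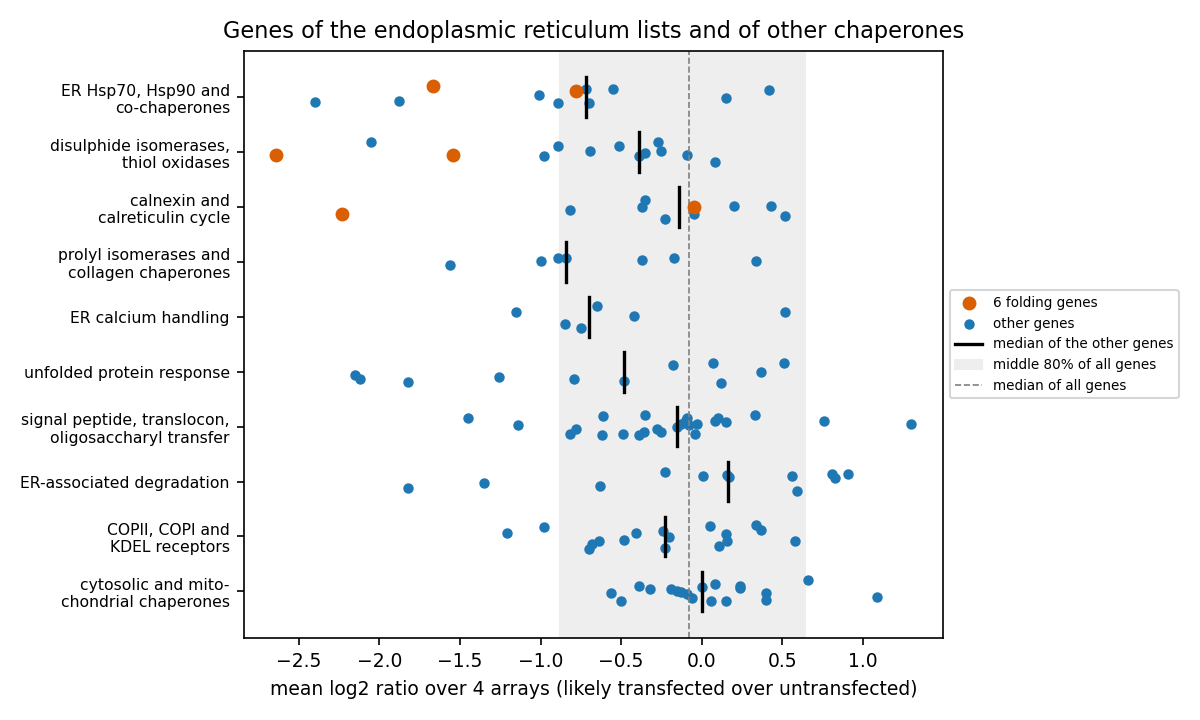
Mean log2 ratio over 4 arrays (likely transfected over untransfected) of each gene in 10 lists, with the 6 folding genes as large orange points, other genes as small blue points and a bar for the median of the other genes. The grey band holds the middle 80% of all genes (-0.88 to 0.64) and the dashed line their median (-0.08), and Pdia6, Calr, Hspa5 and Pdia4 lie left of the band while Dnajb11 and Canx lie inside it.

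In the unfolded protein response list 3 of 11 genes were lower and 0 higher, with a median of -0.48. Herpud1, which encodes a membrane protein of the degradation complex and is a target of the response, had -0.29, -2.23, -2.69 and -2.06 on arrays 1 to 4 (limma, unadjusted p = 0.00652, adjusted p = 0.312). Ddit3, which encodes the transcription factor CHOP, had 0.95 on array 1 and -2.79, -3.54 and -3.22 on arrays 2 to 4, the widest such gap among the genes of these lists that passed (limma, unadjusted p = 0.0189, and 0.00106 without array 1). Creb3l1, a membrane-bound transcription factor gene, had -0.40, 0.92, -2.95 and -2.61, so its low values lay on the arrays with the transfected line in Cy3. Chac1, a target of PERK signalling, had -0.06, -3.13, -4.71 and -0.58 and did not pass (limma, unadjusted p = 0.0511). The transcription factor genes Xbp1 and Atf4 had means of -0.18 and 0.12 and did not pass.

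Of 7 prolyl isomerases and collagen chaperones 2 were lower, namely the collagen prolyl hydroxylase genes P4ha1 (-0.89 ± 0.34) and P4ha2 (-0.30, -1.41, -1.41 and -0.89 on arrays 1 to 4), with a list median of -0.84. Of 6 calcium handling genes 1 was lower, Rcn3 (-1.15 ± 0.63), with a median of -0.70. Of 25 genes of signal peptide recognition, the translocon and oligosaccharyl transfer 4 were lower and 1 higher, with a median of -0.15. The 4 were Ssr4 (-1.45 ± 0.83), Ost4 (-1.14 ± 0.34), Ddost (-0.82 ± 0.20) and Rpn1 (-0.78 ± 0.24), 3 of them for subunits of the oligosaccharyltransferase. The higher one was the catalytic subunit gene Stt3b (0.76 ± 1.05). Stt3b had a mean of 1.63 with the transfected line in Cy5 and -0.12 with it in Cy3. It did not pass without the dye term.

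In endoplasmic reticulum-associated degradation 2 of 12 genes were lower and 2 higher, with a median of 0.16. The lower ones were Herpud1 and the lectin gene Os9 (-1.35 ± 0.44). The higher ones were Nploc4 (0.83 ± 0.39), which encodes a cofactor of the VCP ATPase, and the ubiquitin-conjugating enzyme gene Ube2g2 (0.81 ± 1.13). Ube2g2 had a mean of -0.09 with the transfected line in Cy5 and 1.71 with it in Cy3. It did not pass without the dye term. Nploc4 passed without that term and had orientation means of 0.52 and 1.13. Of 17 genes of COPII and COPI vesicles, which carry cargo between the endoplasmic reticulum and the Golgi, 2 were lower (11.8%, beside 7.49% of all genes). These were Copz1 (-1.21 ± 1.06) and Sec31a (-0.98 ± 0.24), and 0 were higher, with a list median of -0.23. Chaperones outside the endoplasmic reticulum had a median of 0.00. Of those 19 genes 0 were lower and 1 was higher, the mitochondrial co-chaperonin gene Hspe1 (1.09 ± 0.88), whose partner Hspd1 had 0.66 ± 0.57 and did not pass.

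The promoter elements were then set beside the ratios of other genes that carry them. An ERSE was present in the windows of 33 further genes, of which 6 were measured on all 4 arrays. Of these 1 passed, Creld2, and 0 were higher. Its element is shown with those of Dnajc3 and Hsp90b1, chaperone genes whose arrays 2 to 4 were all below 0, to set beside the elements above.
Creld2: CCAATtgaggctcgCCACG
Dnajc3: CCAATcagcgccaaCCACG
Hsp90b1, further from the start: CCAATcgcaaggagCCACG
Hsp90b1, nearer to the start: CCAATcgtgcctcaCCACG
Herpud1, ERSE-II: ATTGGgCCACG
Dnajb11, ERSE-II: ATTGGcCCACG
Creld2 and Alg12, which encodes a mannosyltransferase, lie head to head on chr15, share 173 bases of their windows and so carry the same ERSE. Creld2 had a mean of -2.40 and Alg12 one of -0.73, with -0.51, -1.55, -0.50 and -0.38 on arrays 1 to 4. Derl3, which encodes a degradation factor, holds an ERSE and had a mean of 0.56, with all arrays above 0. Acnat2 had 0.90, -0.87, 0.82 and -2.60, on both sides of 0. Of the 6 genes 4 were below 0 on each of arrays 2 to 4, as were 22.2% of all genes. Array 1 was above each of the other arrays in 5 of them and in 29.6% of all genes.

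Of 5 further measured genes with an ERSE-II, 1 was lower, Herpud1, and 0 were higher, where all genes had 7.49% and 4.05%. Herpud1, like Creld2, was read from moved rows alone. The calcium-binding protein gene Nucb1 had -0.14, -1.10, -0.27 and -1.47 and did not pass, and Rbm39, Rcl1 and Rnf151 had means of 0.12, -0.03 and 0.43. Among genes with either element the ratios thus ran from Pdia6 (-2.64) to Derl3 (0.56). Pdia4, which has neither in its window, had -1.54. Of 63 measured genes with a UPRE, 4 were lower and 3 higher, where all genes had 7.49% and 4.05%. Their median was -0.07, against -0.08 for all genes.

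**Figure D4:**
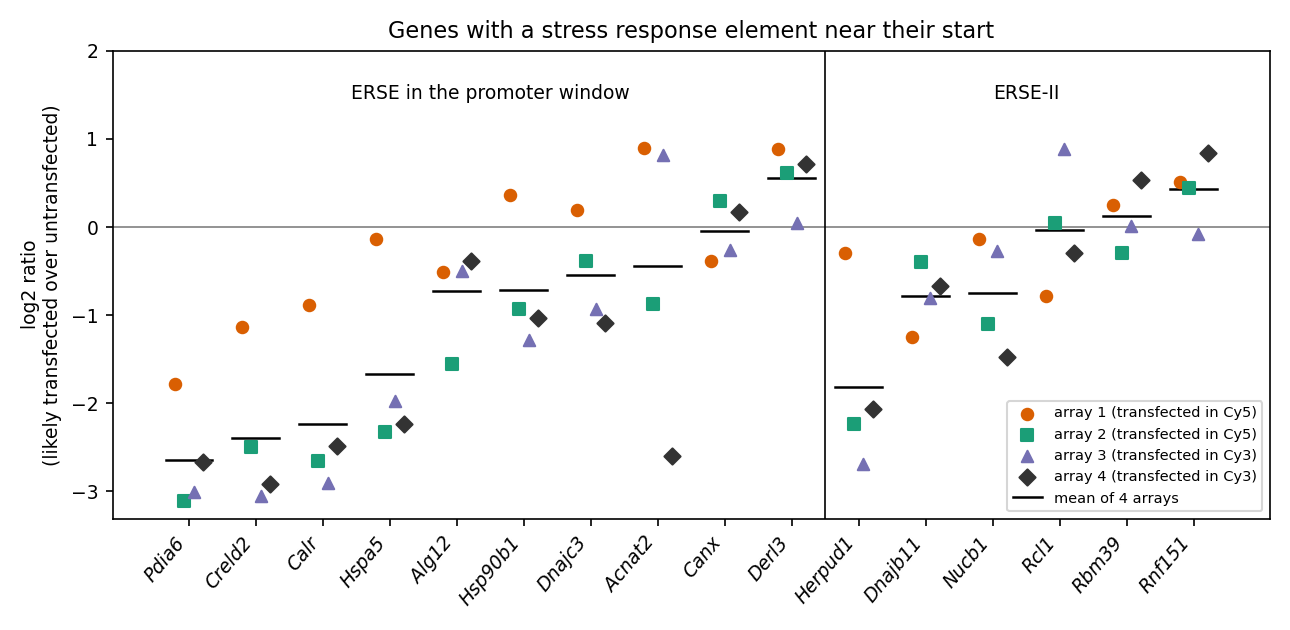
Log2 ratio (likely transfected over untransfected) on each array for the genes with an ERSE (left) or an ERSE-II (right) in the promoter window and a value on all 4 arrays, ordered by mean. Pdia6, Creld2, Calr, Hspa5 and Herpud1 have arrays 2 to 4 near or under -2 with array 1 above them, and Canx, Derl3, Rbm39, Rcl1 and Rnf151 lie around or above 0.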

How the data were processed

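The deposited values are the authors' log2 ratios of 4 two-colour cDNA arrays. They appear to be already turned to 1 direction, as every pair of arrays correlated positively across genes. They also appear to be shifted by a constant that differs between arrays, which was not tested. The sources used here name no image software and do not state how background or normalization was handled. Of 20355 probes, 14030 had 1 gene symbol, 5 several and 6320 none here. A total of 13994 were matched to RefSeq genes. Rows 1 to 6000 were used as they stand, arrays 2 to 4 were moved back by 3 rows in rows 8001 to 18000 and by 4 rows from row 18301, and the other 2300 rows (11.3%), with 2 of the 10 probes of the genes described, were left out. Across probes, Spearman's rho of array 1 with arrays 2 to 4 was 0.110 in the first rows, 0.0954 in the middle rows after moving and 0.120 in the last rows after moving. As deposited, rho was -0.00595 in the middle rows and -0.0113 in the last ones. Values beyond 15 either way, which are capped ratios (63, 120, 121 and 114 on arrays 1 to 4), were dropped. Between 76.8% and 94.6% of rows had a value on an array. Probes were averaged per gene. Genes with 4 values were fitted with limma 3.58.1 in R 4.3.3 (lmFit and eBayes, mean and dye term), with Benjamini-Hochberg adjustment over all genes. The fit was also run on simulated data with independent noise smaller than the spread between these arrays. That run checks the code and not how the fit performs on these arrays. With 4 arrays a sign permutation cannot give a 2-sided p below 0.125, so none was used. The number of arrays limits the precision. Members and lists were chosen with earlier results of these data known. Genes named are the 6 and all measured genes of 3 folding lists. In other lists they are those that passed or were among the 3 largest means in size. The 5 nearest genes and those with an ERSE or ERSE-II are named too. Xbp1 and Atf4 were named after their values were seen.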

Additional observations from a re-analysis of the deposited data

Results flagged for a closer look

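A single array stood apart from the other 3 in 8 of the 81 genes and list medians examined, by Dixon's ratio (the gap to the nearest array divided by the whole range) at its 95% critical value. Chance flags about 1 in 20, but Hspa5, Pdia4 and Slc6a9 were chosen on these ratios, so the number is not compared with chance. Hspa5 had a ratio of 0.838 and Pdia4 one of 0.860, in both because array 1 lay nearest to 0. Ddit3 (0.834) and Slc6a9 (0.862) had array 1 apart in the same direction. In Alg12 (0.887) array 2 was lowest, in Ddost (0.898) array 3 was lowest, and in Rpn2 (0.927), which encodes a subunit of the oligosaccharyltransferase, array 3 was high at 5.90 while the others lay between -0.54 and -0.07. The median of the COPII and COPI list (0.862) was lowest on array 3. Their causes were not tested.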

How the results depend on the processing

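No paired analysis was possible because all 4 arrays form 1 group, with both lines on each array. At an unadjusted p under 0.05, 730 genes passed, 276 with the first rows alone (fewer genes tested) and 355 to 981 with 1 array left out (lowest without array 2). At an adjusted p under 0.05, 0 genes passed, 0 also with any 1 array left out, and 1 after scaling arrays to a common spread, 3 with the median of a gene's probes, 6 without the dye term and 2 with only probes that had a value on every array, an alternative chosen after seeing the data. The median of the 6 folding genes (-1.60) was -0.56 over 5 genes with rows as deposited, -0.78 over the 3 genes of the first rows, and -2.07 to -1.14 with 1 array left out. The count of 18 lower genes in the endoplasmic reticulum lists was 9 in the first rows (of 37), 11 in the lower rows (of 78) and 9 to 20 with 1 array left out. With rows as deposited Hspa5 (0.24), Hspe1 (-0.13) and Ube2g2 (-0.05) changed sign. So did Canx, from a mean of -0.05 to 0.29. The other settings gave counts within 1.5 times these (0 for the adjusted p) and a median within 1 SD. For 22 list genes that passed, 68 of 304 alternative values lost the call, 2 turned and the others kept it. The cause was not tested, apart from the smaller number of genes or arrays where stated. How far the signal stood above background is not given by ratios.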

Other observations

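Pdia4 had 2 further probes in rows whose offset was unclear, which entered no comparison. On array 1 these read -1.43 and -0.09. Read 3 rows higher on arrays 2 to 4, the probe with -0.09 gave -1.52 and -1.57 on arrays 3 and 4 and a lower ratio on array 2, where the Pdia4 probe in the first rows had -1.77, -1.99 and -1.96. Read 2 rows higher, the other probe gave -1.86, -1.07 and -0.87. At the remaining offsets from 0 to 4 rows the values lay nearer to 0 or on both sides of it, apart from -1.41 on array 4 at no offset. These offsets were compared after the values were seen.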
